A study of Harpegnathos saltator with 19 samples.

Results

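The cytosolic ribosomal protein genes of the ant Harpegnathos saltator were followed in RNA from the central brain of 19 workers. The genes were chosen by name: rows of the deposited table whose RefSeq symbol begins with RpL or RpS and a digit, or with RpLP, and whose level reached 1 FPKM (reads scaled to gene length and library depth) in at least 5 libraries. This gave 58 of the 14001 genes of the table, 36 with large subunit symbols and 22 with small subunit symbols. Each of the 58 rows with such a symbol passed the limit of 1 FPKM, as did 9381 genes in all. Rows with the symbols RpLP2 and RpL40 were not found and are not analysed here.

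Each library came from 1 ant, which received an injection into the head and was dissected 10 h later. The injection held 20-hydroxyecdysone (20E) at 100 ng for 7 ants, juvenile hormone III (JH3) at 100 ng for 7 ants, and DMSO for the 5 control ants. The labels give the hormones in a glucose solution and do not give the solution of the DMSO injections. All ants were workers, kept in the same facility. The label of each library also opens with a number, 200212 or 190514, called its run here. Run 200212 holds replicates 4 to 7 of 20E, replicates 4 to 7 of JH3 and replicates 4 and 5 of DMSO, and run 190514 holds replicates 1 to 3 of each group. The labels do not say which steps a run shared.

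Ribosomal proteins assemble with ribosomal RNA into the small subunit, which reads the mRNA, and the large subunit, which joins amino acids. Every cell needs them in near equal numbers, and their mRNAs are among the most abundant of most cells. In animals their production is adjusted to growth and nutrition, in large part through target of rapamycin (TOR) signalling. 20E is the moulting hormone of insects and JH3 a form of juvenile hormone; both have other actions in adults.

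The reads counted on genes ran from 13.04 to 25.52 M per library, from 15.58 to 19.03 M in run 200212 and from 13.04 to 25.52 M in run 190514. The 14 neuron markers were present in every library, with a summed level of 889 to 1515 FPKM in run 200212 and 881 to 1189 FPKM in run 190514. Among the 6 glia markers, repo, which encodes the defining transcription factor of glia, was at 21.8 to 46.6 FPKM. Markers of neighbouring tissue were also present: the 10 eye markers that passed the limit summed to between 62.2 and 513 FPKM per library, and trpl, a photoreceptor channel gene that did not pass it, was listed at 0 in 3 libraries. The 7 fat body and haemolymph markers that passed summed to between 1554 and 2364 FPKM, most of it from Tsf1. The 10 muscle markers that passed summed to between 88.1 and 362 FPKM, much of it from Mef2. Mef2 was the highest of them, with a median of 96.3 FPKM. Tm1 came next with 17.7 FPKM, and Mhc had 5.64 FPKM. Whether the Mef2 transcripts came from muscle was not tested.

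As a group the ribosomal protein genes were highly expressed. The median of their mean levels was 46.9 FPKM, against 7.48 FPKM over all genes tested. The level of 55 of the 58 lay above that overall median and that of 36 above the 90th percentile of the genes tested (33.7 FPKM). The spread among the genes was wide, and the large and small subunit genes overlapped (medians of 46.0 and 58.1 FPKM). FPKM is scaled to gene length, and the lengths behind these values ran from 519 to 9269 bases.

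RpL10 was the highest, with 275 FPKM on average. Its protein joins the large subunit late in assembly. RpS3A averaged 232 FPKM, RpS6 135, RpL23 133 and RpS29 128 FPKM. RpS6 encodes the classical substrate of S6 kinase and RpL23 a protein of the face where the subunits meet. Among the lowest were RpL24-like at 3.69, RpLP0-like at 5.99, RpS4 at 12.0 and RpS30 at 13.9 FPKM. RpS30 encodes a ribosomal protein made as a fusion with a ubiquitin-like protein. In Drosophila the proteins named RpL24-like and RpLP0-like are assembly factors related to RpL24 and RpLP0, and not parts of the finished ribosome.

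The low level of RpL24-like goes with a long gene length in the authors' scaling, 9269 bases, against a median of 1920.5 bases for the 58 genes. For 26 of the 58 genes (44.8%) the length behind the FPKM values was longer than the whole gene in the RefSeq table, which was also so for 41.2% of all genes tested. Levels are therefore compared between genes only loosely here. The comparisons between libraries, where the length used in the scaling cancels, carry the results. Fold changes between the runs still went with gene length (Spearman correlation 0.54 over the 9381 genes tested). RpS27A is made as a fusion with ubiquitin, so its reads could be split with those of other ubiquitin genes.

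**Figure D1:**
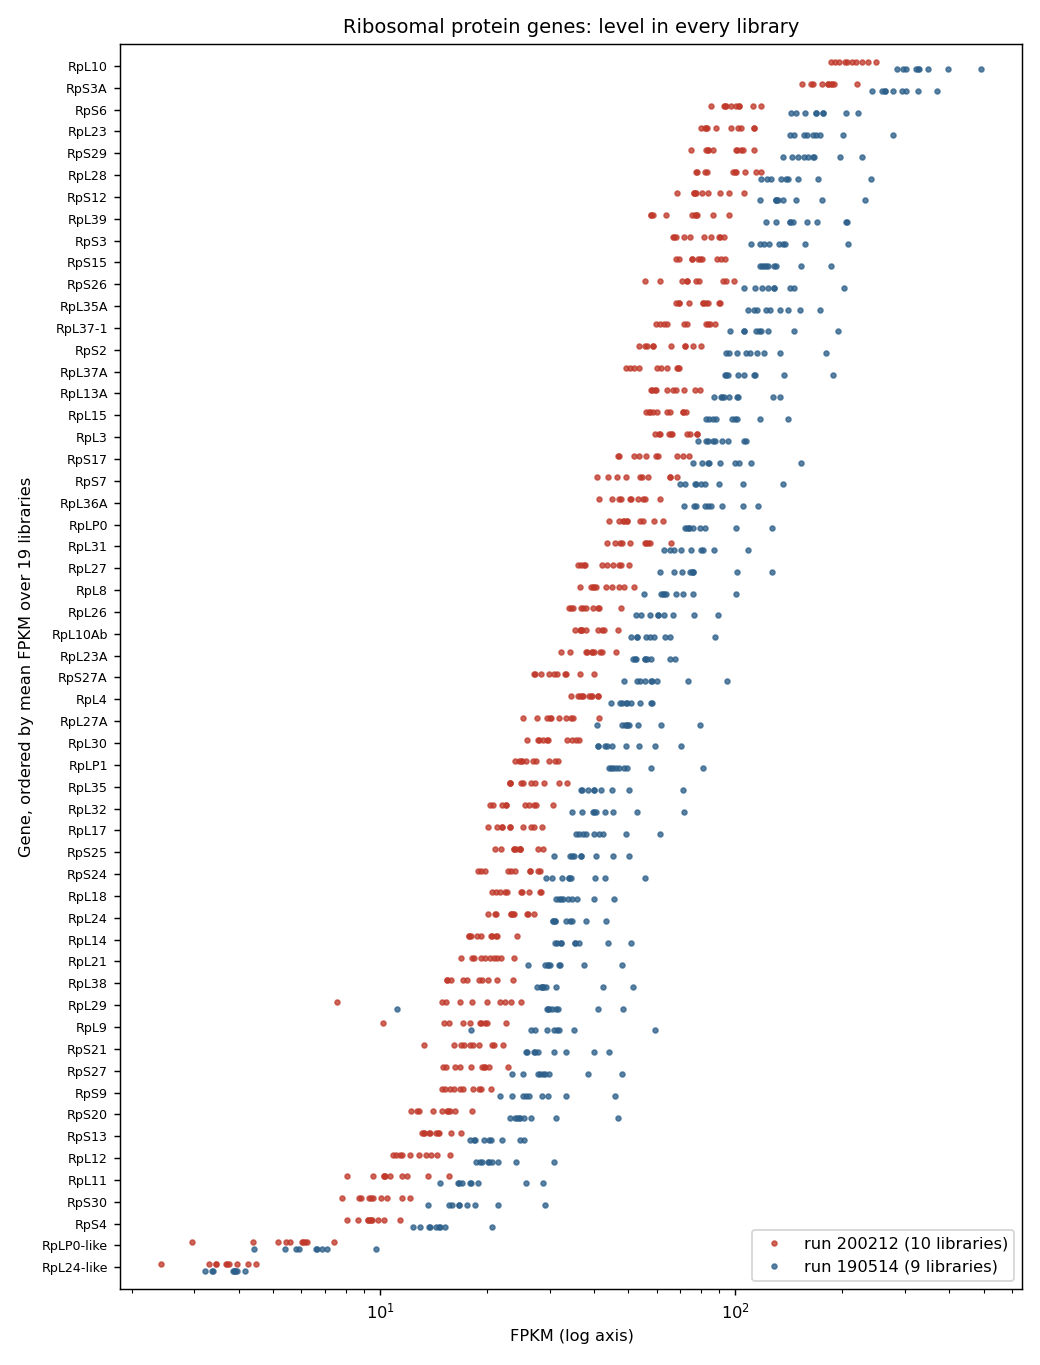
Level of 56 of the 58 ribosomal protein genes in every library, in FPKM on a log axis, with genes ordered by their mean; red points are the 10 libraries of run 200212 and blue points the 9 of run 190514. In 49 of the genes drawn the red points all lie below the blue points, while those of RpLP0-like and RpL24-like at the bottom overlap.

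The comparison of 20E with DMSO asks whether the brain's ribosomal protein genes responded to the moulting hormone. No member passed the threshold, an adjusted p under 0.05 by limma with Benjamini-Hochberg adjustment over all genes tested, against 3.34% of all genes. The count at an unadjusted p under 0.05 was also 0, by limma and by voom in limma on whole reads. Of the 9381 genes tested, 848 had such a p by limma. The median log2 fold change of the 58 genes was 0.00, beside -0.01 for all genes, and 29 of the 58 were positive. Within the runs the median took opposite signs: it was 0.15 in run 200212, with 53 of the 58 positive, and -0.13 in run 190514, with 3 positive. With no run term it was -0.12, with 2 positive, and scaled to total reads -0.07, with 6 positive. The fold changes lay between -0.18 and 0.19 on the log2 scale, with a median SE of 0.13.

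RpL10 was at a lowest value of 195, a median of 249 and a highest of 349 FPKM in the 7 20E libraries, against 328, 322, 397, 191 and 186 FPKM in the DMSO libraries 1 to 5. RpS6 ran from 93.1 through a median of 118 to 169 FPKM in 20E, against 176, 176, 205, 94.0 and 85.4 FPKM in DMSO. In both genes the groups overlapped, and the DMSO libraries fell into a high set of 3 (run 190514) and a low set of 2 (run 200212). The log2 fold change was 0.03 ± 0.12 for RpL10 and -0.01 ± 0.11 for RpS6 (SE, adjusted p = 0.999 for each by limma).

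The highest fold change was that of RpL29, a large subunit gene, which ran from 7.56 through a median of 23.4 to 30.5 FPKM in 20E, against 31.6, 11.1, 41.1, 14.9 and 15.3 FPKM in DMSO. Its log2 fold change was 0.19 ± 0.28 (SE, adjusted p = 0.999, limma). The lowest was that of RpS9, a small subunit gene involved in decoding accuracy, at 14.9 through a median of 19.3 to 26.3 FPKM in 20E, against 29.8, 28.6, 33.3, 16.2 and 16.8 FPKM in DMSO. Its log2 fold change was -0.18 ± 0.13 (SE, adjusted p = 0.959, limma). In both genes the 20E values lay inside or close to the range of the DMSO values.

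In JH3 with DMSO no member passed either, against 0.927% of all genes. At an unadjusted p under 0.05 there was 1 member, RpLP0-like, by limma and 1 member by voom. By limma 778 of the 9381 genes tested had such a p. The median log2 fold change of the members was 0.12, beside 0.00 for all genes, and 56 of the 58 were positive, beside 50.8% of all genes. The range was -0.04 to 0.52, and the smallest adjusted p was 0.347 (limma). Without JH3 replicate 1 the median was 0.03, with 45 of the 58 positive. Within the runs it was 0.26 in run 200212, with all 58 positive, and 0.02 in run 190514, with 39 positive. With no run term it was -0.00.

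RpLP0-like was at 5.57 through a median of 6.60 to 9.73 FPKM in JH3, against 5.41, 4.41, 6.85, 5.16 and 4.40 FPKM in DMSO. JH3 replicate 1 was the highest of the JH3 libraries, and 1 DMSO library lay above the JH3 median. The log2 fold change was 0.42 ± 0.15 (SE, adjusted p = 0.347, limma). This gene also had the fewest reads, 108 in its median library and 40 in its lowest.

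RpL29 was at 16.8 through a median of 24.9 to 48.2 FPKM in JH3, against 31.6, 11.1, 41.1, 14.9 and 15.3 FPKM in DMSO (log2 fold change 0.52 ± 0.28, SE, adjusted p = 0.648, limma). RpL9 was at 19.1 through a median of 20.0 to 59.3 FPKM in JH3, against 31.9, 18.0, 35.2, 17.1 and 15.1 FPKM in DMSO (0.35 ± 0.20, adjusted p = 0.649, limma). In both large subunit genes JH3 replicate 1 stood above every other library. RpL37-1 and RpL28 followed in order of fold change, with 0.25 each (limma, adjusted p = 0.648 and 0.663). At the other end, RpS13 was at 13.3 through a median of 14.6 to 25.4 FPKM in JH3, against 22.1, 18.5, 24.7, 13.3 and 14.4 FPKM in DMSO, and its log2 fold change was -0.04 ± 0.09 (SE, adjusted p = 0.864, limma).

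In 20E with JH3 no member passed, against 5.34% of all genes. At an unadjusted p under 0.05 there were 2 members, RpLP0-like among them, by limma and 3 members by voom. By limma 1300 of the 9381 genes tested had such a p. The median log2 fold change was -0.13, beside -0.02 for all genes, and 1 of the 58 was positive, beside 45.8% of all genes. The range was -0.33 to 0.03 and the median SE 0.11. Without JH3 replicate 1 the median was -0.05 with 11 genes positive, and within the runs it was -0.10 in run 200212 and -0.19 in run 190514.

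RpLP0-like was at 2.96 through a median of 5.92 to 6.63 FPKM in 20E, against 5.57 through a median of 6.60 to 9.73 FPKM in JH3, and its log2 fold change was -0.31 ± 0.13 (SE, adjusted p = 0.276, limma). Its 20E range overlapped its JH3 range. The 3 hormone comparisons share libraries, so their values for a gene are not independent.

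The large subunit genes had median log2 fold changes of -0.01 in 20E with DMSO, 0.11 in JH3 with DMSO and -0.13 in 20E with JH3, and the small subunit genes 0.01, 0.15 and -0.13. The ribosomal stalk, which brings elongation factors to the large subunit, was represented by RpLP0 and RpLP1. RpLP0 averaged 60.9 ± 14.0 FPKM in 20E (SD, n = 7), 71.0 ± 26.9 FPKM in JH3 (n = 7) and 70.6 ± 22.5 FPKM in DMSO (n = 5). RpLP1 averaged 35.6 ± 10.4 FPKM in 20E, 40.2 ± 19.8 FPKM in JH3 and 41.0 ± 14.8 FPKM in DMSO. These means differed by less than the spread within a group, which holds both runs. With the run as a term, the log2 fold changes of RpLP0 were -0.07 ± 0.12 in 20E with DMSO and 0.11 ± 0.12 in JH3 with DMSO (SE). Those of RpLP1 were -0.02 ± 0.13 and 0.09 ± 0.13.

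**Figure D2:**
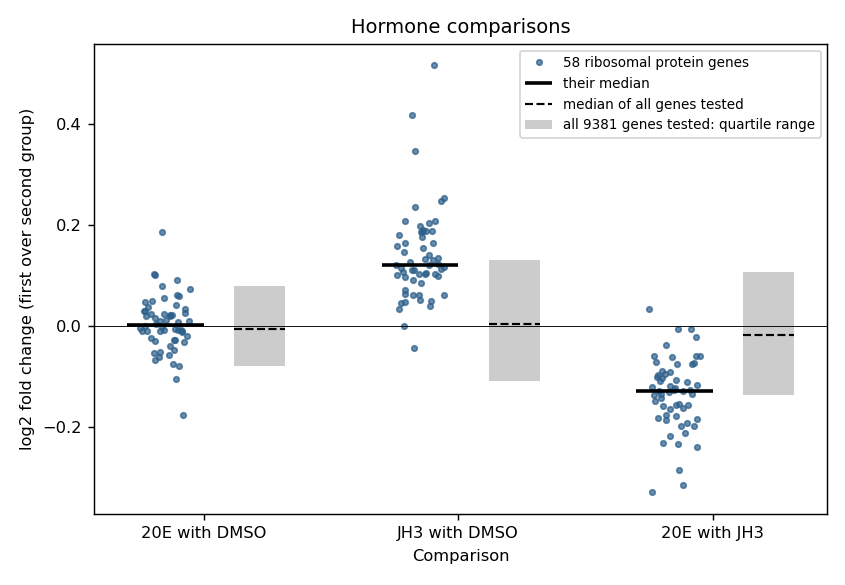
Log2 fold change of each of the 58 genes in the 3 hormone comparisons (blue points, first group over second), with their median as a black line and the quartile range and median of all 9381 genes tested in grey. The points centre on 0.00 in 20E with DMSO, on 0.12 in JH3 with DMSO and on -0.13 in 20E with JH3, and none passed the threshold.

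Whether a hormone difference was itself different between the runs was tested by a group by run term. No member passed in any of the 3 comparisons, against 0% of all genes in each, and 0 members had an unadjusted p under 0.05 (limma). Of the 9381 genes tested, 207 had such a p in 20E with DMSO, 450 in JH3 with DMSO and 248 in 20E with JH3. Without JH3 replicate 1 the adjusted count was still 0, while 11 members in 20E with DMSO and 34 in JH3 with DMSO had an unadjusted p under 0.05. The counts over all genes without that library are not given here, so these member counts have no overall share beside them. The mean log2 level over the 58 genes was 5.10 ± 0.17 in 20E (SD, n = 4) and 4.95 ± 0.01 in DMSO (n = 2) within run 200212. Within run 190514 it was 5.71 ± 0.06 in 20E (n = 3) and 5.83 ± 0.21 in DMSO (n = 3). The 20E libraries thus all lay above the DMSO mean in run 200212 and all below it in run 190514.

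The markers of other cell types moved with the hormones in part. In 20E, Gli of the glia markers rose, and of the eye markers rdgA rose and sev fell (limma). In JH3, moody and Gat-a of the 6 glia markers fell (limma). The glia markers summed to 502 to 881 FPKM in 20E and 421 to 861 FPKM in JH3, against 751 to 1051 FPKM in DMSO. Most of these sums came from Gs2, which did not pass in either comparison. It averaged 558 ± 116 FPKM in 20E, 501 ± 141 FPKM in JH3 and 732 ± 107 FPKM in DMSO. The muscle markers summed to 164 to 362 FPKM in JH3, against 94.5 to 169 FPKM in DMSO. Mef2, the only 1 of the 10 tested to pass, rose. It averaged 143 ± 36.8 FPKM in JH3 and 79.7 ± 28.4 FPKM in DMSO, so the sums largely follow this gene. The neuron markers summed to 954 to 1515 FPKM in 20E and 889 to 1189 FPKM in JH3, against 881 to 1198 FPKM in DMSO. None of the 14 passed the threshold against DMSO. In 20E with JH3, VAChT of the neuron markers was higher (log2 0.54 ± 0.11, adjusted p = 0.0045, limma). Of the 7 fat body markers tested 2 were higher and 1 lower in 20E with JH3, and none passed against DMSO. The part of these markers in the values of the ribosomal protein genes was not tested. In whole tissue, fewer cells of a type and less RNA per cell cannot be told apart.

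Other genes of the pathway gave few hormone calls. Of the 70 mitochondrial ribosomal protein genes, the 40 translation factor genes and the 15 RNA polymerase I and III genes tested, none passed in any hormone comparison (limma). Their medians in JH3 with DMSO were 0.14, 0.08 and 0.05 on the log2 scale, and in 20E with JH3 -0.14, -0.05 and -0.07. Among 33 ribosome biogenesis genes tested, Nop17l rose in 20E: it averaged 20.8 ± 3.37 FPKM in 20E and 15.0 ± 2.20 FPKM in DMSO (log2 0.41 ± 0.10, adjusted p = 0.0309, limma). Nop17l was also higher in 20E than in JH3, where it averaged 13.2 ± 2.35 FPKM (log2 0.64 ± 0.09, adjusted p = 0.000141, limma). The fly gene of that name belongs to the assembly of small nucleolar ribonucleoproteins.

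Of the 15 TOR and growth genes, 2 rose and none fell in 20E with DMSO, and 3 rose and none fell in JH3 with DMSO. In 20E with JH3, rictor was higher (log2 0.42 ± 0.09, adjusted p = 0.00914, limma) and foxo lower (-0.94 ± 0.12, adjusted p = 2.35e-05, limma). Myc, a transcription factor that drives ribosome production in flies, averaged 4.18 ± 0.93 FPKM in 20E, 3.70 ± 0.91 FPKM in JH3 and 1.74 ± 0.47 FPKM in DMSO (log2 1.005 ± 0.15 with adjusted p = 0.0004 for 20E, and 0.84 ± 0.15 with adjusted p = 0.00537 for JH3, limma). Pdk1, a kinase of insulin signalling, averaged 67.2 ± 18.2 FPKM in 20E, 87.1 ± 23.1 FPKM in JH3 and 33.4 ± 6.80 FPKM in DMSO, and rose in both. The third rise in JH3 was foxo, a transcription factor held in check by insulin signalling, with 9.18 ± 1.67 FPKM in JH3 and 4.76 ± 1.51 FPKM in DMSO. The genes of Tor itself and of S6 kinase targets such as RpS6 did not pass in any hormone comparison.

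The comparison of the runs, with the groups as a term, gave a different picture. In run 200212, 56 of the 58 genes were lower than in run 190514 and none was higher (limma, adjusted p under 0.05). Of all genes tested, 50.9% differed between the runs and 25.3% were lower in run 200212. The median log2 fold change of the 58 genes was -0.73, a level of 0.602 times that of run 190514. The median over all genes was 0.00, with quartiles of -0.25 and 0.27. Large and small subunit genes had medians of -0.72 and -0.75. Scaled to total reads, the median was -0.85 for the members and -0.10 for all genes, and calls over all genes were 1681 higher and 2969 lower in run 200212, against 2405 higher and 2374 lower with the authors' scaling.

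Among the genes with the lowest fold changes were RpL39, RpS27A, RpL37A and RpL27. RpL39 encodes a very small protein of the peptide exit tunnel. It was at 57.8 through a median of 76.3 to 95.8 FPKM in the 10 libraries of run 200212, against 122 through a median of 146 to 206 FPKM in the 9 of run 190514. No library of run 200212 reached the lowest of run 190514, and the log2 fold change was -1.12 ± 0.12 (SE, adjusted p = 3.69e-06, limma).

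RpS27A was at 27.2 through a median of 31.2 to 40.0 FPKM in run 200212, against 48.7 through a median of 58.0 to 94.6 FPKM in run 190514 (log2 -0.94 ± 0.11). RpL37A was at 49.1 through a median of 60.9 to 69.3 FPKM in run 200212, against 93.3 through a median of 106 to 189 FPKM in run 190514 (log2 -0.94 ± 0.12). The runs did not overlap in any of these genes, nor in RpL27 (log2 -0.92 ± 0.11).

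The most abundant members showed the same. RpL10 was at 186 through a median of 209.5 to 249 FPKM in run 200212, against 286 through a median of 327 to 493 FPKM in run 190514, and RpS3A at 155 through a median of 182 to 220.2 FPKM in run 200212, against 243 through a median of 278 to 370.4 FPKM in run 190514. Their log2 fold changes were -0.69 ± 0.10 and -0.68 ± 0.09. RpS6 was at 85.4 through a median of 98.8 to 118 FPKM in run 200212, against 143 through a median of 169 to 221 FPKM in run 190514 (-0.79 ± 0.09). The stalk genes RpLP0 and RpLP1 had -0.68 ± 0.10 and -0.90 ± 0.10.

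Genes for proteins that sit together in the ribosome differed in fold change, within a part of the range. Over the 58 genes the range was -1.12 to -0.04, with quartiles of -0.82 and -0.64. Most of the genes named here were chosen after their values were seen. Around the mouth of the exit tunnel, RpL17 had a log2 fold change of -0.81 ± 0.09, RpL26 -0.73 ± 0.09, RpL35 -0.71 ± 0.11, RpL31 -0.55 ± 0.10 and RpL23A -0.54 ± 0.07 (SE). Of these, RpL17 was at 20.1 through a median of 23.2 to 28.6 FPKM in run 200212, against 35.7 through a median of 39.9 to 61.3 FPKM in run 190514, and RpL31 at 43.5 through a median of 53.1 to 65.8 FPKM in run 200212, against 62.8 through a median of 75.01 to 109 FPKM in run 190514. RpL31 is 1 of the few members in which the runs overlapped. At the entry of the mRNA channel, RpS2 had -0.84 ± 0.12, RpS3 -0.80 ± 0.11 and RpS9 -0.69 ± 0.10. RpS3 was at 67.0 through a median of 78.3 to 93.1 FPKM in run 200212, against 111 through a median of 132 to 207 FPKM in run 190514, with no overlap.

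RpL24, the ribosomal relative of RpL24-like, and RpLP0, that of RpLP0-like, allow each assembly factor gene to be set beside its ribosomal relative. RpL24 was at 20.1 through a median of 23.5 to 27.1 FPKM in run 200212, against 30.6 through a median of 33.4 to 43.4 FPKM in run 190514 (log2 -0.52 ± 0.07, adjusted p = 2.27e-05, limma). RpLP0 was at 44.2 through a median of 49.7 to 62.6 FPKM in run 200212, against 72.2 through a median of 76.1 to 127 FPKM in run 190514. In both ribosomal genes the runs did not overlap. Their fold changes were lower than those of RpL24-like (-0.04) and RpLP0-like (-0.25). That difference between genes was not tested itself. The lengths differed too: 9269 bases for RpL24-like and 2979 for RpL24, 954 for RpLP0-like and 2037 for RpLP0. Other genes had medians of 0.23 from 6000 to 10000 bases, -0.20 from 2000 to 3000 and -0.21 up to 1000. With the trend on length removed, RpL24-like had -0.33 (adjusted p = 0.0282, limma). The part of length was not tested.

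At the other end stood the genes for the assembly factors and a few others. RpL24-like was at 2.42 through a median of 3.69 to 4.47 FPKM in run 200212, against 3.22 through a median of 3.89 to 4.17 FPKM in run 190514 (log2 -0.04 ± 0.08, adjusted p = 0.707, limma). RpLP0-like was at 2.96 through a median of 5.80 to 7.40 FPKM in run 200212, against 4.41 through a median of 6.60 to 9.73 FPKM in run 190514 (log2 -0.25 ± 0.12, adjusted p = 0.0831, limma). In both genes the runs overlapped over most of their range, and these were the 2 members that did not pass.

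RpL3, the core protein beside the peptidyl transferase centre, had -0.41 ± 0.08 and RpL4, which lines the exit tunnel, -0.41 ± 0.05. RpL3 was at 59.5 through a median of 66.1 to 78.0 FPKM in run 200212, against 78.3 through a median of 87.8 to 107 FPKM in run 190514, so that its runs just failed to overlap. The gene Rps14, whose symbol is spelled with a small p and which therefore fell outside the rule, averaged 43.2 ± 5.15 FPKM in run 200212 (SD, n = 10) and 82.4 ± 20.0 FPKM in run 190514 (n = 9), a log2 fold change of -0.91 ± 0.11 (adjusted p = 7.44e-06, limma).

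**Figure D3:**
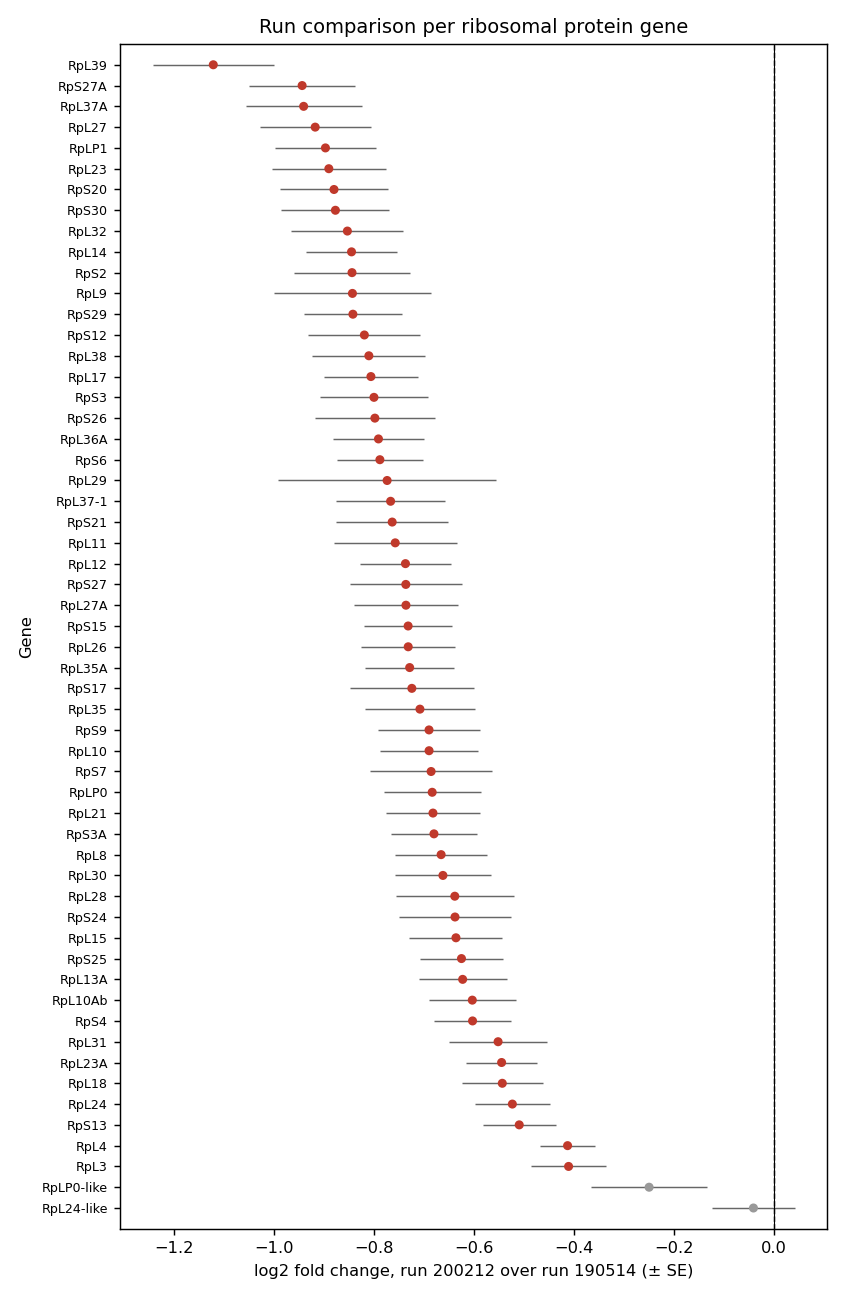
Log2 fold change, run 200212 over run 190514, of 56 of the 58 genes, each with its SE as a bar; red points passed the threshold and grey points did not. The values run from -1.12 in RpL39 to -0.04 in RpL24-like, and the 2 grey points are RpLP0-like and RpL24-like.

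In 50 of the 58 genes every library of run 200212 lay below every library of run 190514, which was so for 6.3% of all genes tested. Among the exceptions were RpL9, RpL11, RpL27A, RpL29, RpL31, RpL24-like and RpLP0-like. The difference had the same direction in each group: 57 of the 58 genes had a lower mean in run 200212 within 20E, within JH3 and within DMSO, against 36% of all genes, and RpL24-like was the exception. The medians within the groups were -0.63 in 20E, -0.70 in JH3 and -0.91 in DMSO on the log2 scale.

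Together the 58 genes took 1.61 ± 0.16% of the summed FPKM in run 200212 (SD, n = 10, 1.42 to 1.90%) and 2.66 ± 0.46% in run 190514 (n = 9, 2.19 to 3.62%). By group these shares were 1.96 ± 0.50% in 20E, 2.17 ± 0.73% in JH3 and 2.22 ± 0.74% in DMSO. The runs did not overlap in the share, while the groups overlapped almost wholly. The mean log2 level per library was 4.94 to 5.36 in run 200212 and 5.63 to 6.35 in run 190514.

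Within run 190514, JH3 replicate 1 stood above the rest. It was the highest of the 19 libraries in 57 of the 58 genes, against 18.3% of all genes, and RpL24-like was highest in JH3 replicate 5. JH3 replicate 1 also had the highest mean log2 level of the mitochondrial ribosomal (3.42), oxidative phosphorylation (5.40), proteasome (4.84) and ribosome biogenesis genes (3.07). It did not for the translation factor genes (4.72, against 4.74 in DMSO replicate 3), the RNA polymerase genes or the TOR genes. RpL10 had 493 FPKM in JH3 replicate 1, against 286 and 302 FPKM in JH3 replicates 2 and 3, and RpL9 had 59.3, against 27.4 and 29.5 FPKM. DMSO replicate 3 came next in the mean level over the 58 genes. The lowest values were spread over several libraries of run 200212: DMSO replicate 5 was lowest in 16 genes, 20E replicate 6 in 15, DMSO replicate 4 and 20E replicate 5 in 11 each, and 20E replicate 4 in 5. Without JH3 replicate 1 the run difference had a median of -0.66 and the same count of 56 genes passing.

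20E replicate 6 stood apart in another way. Its reads counted on genes were 1.29 times the depth by which the authors scaled it, the highest such ratio of the 19 libraries, whose lowest was 0.878. Against the other 20E libraries of its run it was low in some members and not in others: RpL29 had 7.56 FPKM, against 18.2, 20.0 and 23.4 FPKM in 20E replicates 4, 5 and 7, while RpL3 had 77.9 FPKM, against 65.0, 59.5 and 73.3 FPKM. DMSO replicate 2 of run 190514 was likewise low in RpL29, with 11.1 FPKM, against 31.6 and 41.1 FPKM in DMSO replicates 1 and 3. Without 20E replicate 6 the run difference had a median of -0.72 and 56 genes passing.

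**Figure D4:**
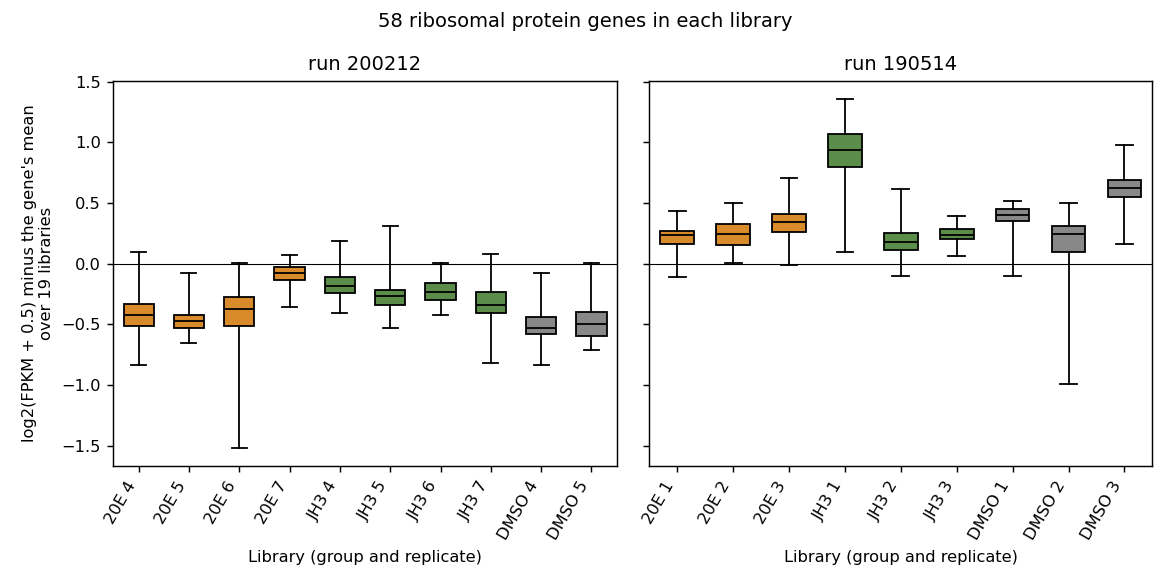
Distribution over the 58 genes of log2(FPKM + 0.5) minus the gene's mean over the 19 libraries, per library; boxes are quartiles with the median line, whiskers reach the lowest and highest gene, orange is 20E, green JH3 and grey DMSO. The boxes of the 10 libraries of run 200212 (left) lie below 0 and those of run 190514 (right) above it, with JH3 replicate 1 highest.

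The members moved together beyond group and run. After removal of the group and run means, the median Pearson r between pairs of members over the 19 libraries was 0.82 (1653 pairs, quartiles 0.70 and 0.89), beside -0.005 for pairs of all genes tested. Without JH3 replicate 1 the median was 0.73. Among the genes that followed the others least were RpL24-like, with a median r of 0.27 to the other members, RpLP0-like with 0.42, RpL29 with 0.44, and RpL3 with 0.55. These pairs share libraries and their depth and scaling, so the values describe these libraries only.

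Gene length moved with the run comparison. Over all genes the Spearman correlation between length and the log2 fold change of run 200212 over run 190514 was 0.54 (9381 genes, which share the same libraries), and shorter genes were lower in run 200212. Among the 58 genes it was 0.19. The slope of a library's values on length ran from -0.013 to 0.238 log2 units per doubling in run 200212 and from -0.193 to -0.003 in run 190514. JH3 replicate 1 had the lowest slope, -0.193, and 20E replicate 6 the highest, 0.238.

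At a given length the members lay below the other genes. Up to 1000 bases the 14 members had a median of -0.73 and the others -0.21. From 1000 to 2000 bases 18 members had -0.77 and the others -0.31, and from 2000 to 3000 bases 15 members had -0.69 and the others -0.20. From 3000 to 4000 bases the medians were -0.70 for 6 members and -0.09 for the others, and from 4000 to 6000 bases -0.64 for 4 members and 0.04 for the others. When the trend on length was removed within each library, the median of the members was -0.50 and 56 passed, with RpL3 no longer and RpL24-like newly among them.

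**Figure D5:**
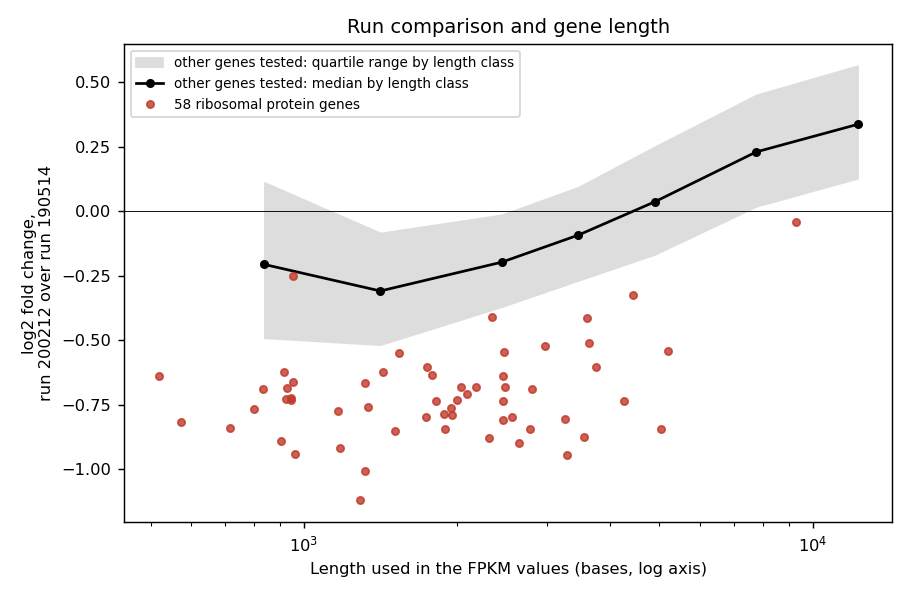
Log2 fold change of run 200212 over run 190514 against the gene length behind the FPKM values (bases, log axis); red points are the 58 genes, and the line and grey band are the median and quartiles of the other genes by length class. The median of the other genes is -0.21 below 1000 bases, -0.31 between 1000 and 2000 and 0.23 between 6000 and 10000 bases, while the 58 members lie below the median of their class, RpLP0-like (-0.25) closest to it.

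Other gene groups differed between the runs too. Of 50 oxidative phosphorylation genes 45 were lower in run 200212 and none higher (limma, median log2 fold change -0.65), and of 30 proteasome genes 28 were lower and none higher (median -0.49). ATPsynE, a subunit gene of ATP synthase, averaged 28.7 ± 2.54 FPKM in run 200212 and 52.5 ± 11.7 FPKM in run 190514. Of the 70 mitochondrial ribosomal protein genes 51 were lower, mRpS21 most of all with 13.5 ± 1.09 FPKM in run 200212 and 25.6 ± 4.80 FPKM in run 190514, and mRpS30 was higher (median -0.39).

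Of the 40 translation factor genes 24 were lower and 2 higher (median -0.24). Those lower included eIF2beta, a subunit of the factor that delivers the initiator tRNA, and eEF1beta, which recharges elongation factor 1. eEF1beta averaged 29.2 ± 4.18 FPKM in run 200212 and 46.5 ± 5.30 FPKM in run 190514. Of 33 ribosome biogenesis genes 15 were lower and 1 higher (median -0.22), and of 15 RNA polymerase I and III genes 6 were lower and 1 higher (median -0.11). The higher one was RpI1, which encodes the largest subunit of RNA polymerase I (log2 0.39 ± 0.07, adjusted p = 0.000262, limma).

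The TOR and growth genes went the other way for the most part, with 9 of 15 higher and 3 lower in run 200212 (median 0.26). They were long genes, with a median length of 6603 bases. Genes of 6000 to 10000 bases outside the ribosomal protein set had a median close to theirs, 0.23. The part of length in the values of the TOR and growth genes was not tested. Tor averaged 13.4 ± 1.96 FPKM in run 200212 and 9.87 ± 2.23 FPKM in run 190514 (log2 0.47 ± 0.12, adjusted p = 0.00284, limma), and raptor, its partner in complex 1, averaged 12.4 ± 2.10 FPKM in run 200212 and 8.36 ± 1.96 FPKM in run 190514 (0.60 ± 0.10). The 3 lower genes were Rheb, which activates TOR, Thor, the fly 4E-BP, and Max, the partner of Myc.

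Some markers of cell types passed in the run comparison, beside 25.6% of all genes higher and 25.3% lower in run 200212. Of the neuron markers 3 of 14 were higher and none lower in run 200212 (median 0.21), and the glia markers summed to 421 to 881 FPKM in run 200212, against 621 to 1051 FPKM in run 190514, with 2 higher and 4 lower. Most of the glia sums came from Gs2, which was among the 4 lower. Of 10 eye markers tested 3 were higher, of 7 fat body markers 3 were higher and 2 lower, and of 10 muscle markers 1 was higher. These are few genes, and the shares of neuron, eye and muscle markers that were higher are near or below that of all genes. The part of these markers in the run difference was not tested. The labels do not say which steps a run shared, so what differed between the runs cannot be told apart.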

How the data were processed

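The authors deposited 1 table of FPKM values for 14001 genes and 19 libraries, from strand-specific poly(A) libraries of 600 ng of total RNA per the labels' protocols. Tools named in the submitters' processing notes are STAR, bcl2fastq, DESeq2 and featureCounts. Tool versions, the build and the gene models: not given in the sources used here. Symbols came from the RefSeq table of Hsal_v8.6, which matched 13989 identifiers and left 12 unmatched; no coordinates are given. Promoter and protein sequences are not used here. A symbol that is that of a fly gene is taken to name the same gene.

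Whole reads could be read back from the FPKM grid for 14001 genes (100%, within 0.02 of a whole number), and with them the gene length in bases and the depth. Reads counted on genes were 0.878 to 1.29 times the depth by which the authors scaled a library. The members had median counts of 108 to 8619 reads. Counting error is small beside the spread between libraries for members with many reads. It weighs more for RpLP0-like, with 108 reads in its median library and 40 in its lowest. Only the FPKM values enter the tests, except in the voom and total-read alternatives.

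Values were taken as log2(FPKM + 0.5) for the 9381 genes with at least 1 FPKM in at least 5 libraries, and tested in R 4.3.3 by limma 3.58.1 with group and run as terms, a trended prior variance and 19 libraries. A fold change is on this log2 scale, which understates the change of low genes. The two-sided p-values were adjusted by Benjamini-Hochberg over all genes of a comparison, and 0.05 was the threshold. The tests were tried on simulated data first. The libraries are single ants, per the labels.

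The members and the 12 other gene lists were chosen with earlier results of these data known. The lists are patterns on the symbol; 10 genes that a pattern caught by its letters alone were removed. Genes named are the 5 highest and 5 lowest members by fold change in each comparison and by level, the stalk and ubiquitin fusion genes, RpS6, the members with -like symbols, and up to 6 called genes of each other list; the report gives a selection of them, and 2 members enter the counts and medians but are not reported by name here. RpL17, RpL24, RpL27A, RpL31, RpL35, RpL23A, RpS2, RpS3 and Rps14 were named after their values were seen. Other steps used Python 3.11.15 with numpy 2.4.6, pandas 2.3.3, scipy 1.17.1 and matplotlib 3.10.9.

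The alternatives were other pseudocounts, filters and scalings, voom, library weights, no run term, each run alone, the replicate number as a block, removal of a trend on gene length, and each library left out in turn.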

Additional observations from a re-analysis of the deposited data

Results flagged for a closer look

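Only a part of the ribosomal protein genes was examined for outlying libraries, chosen in large part by their level or fold change in these data. The count given here is therefore not a count over all the ribosomal protein genes. In 20 of the genes examined JH3 replicate 1 stood far above the other 6 JH3 libraries. By Dixon's criterion the gap was too wide for a group of that size. Among them it had 493 FPKM of RpL10, 370.4 of RpS3A, 279 of RpL23, 241 of RpL28, 194 of RpL37-1, 189 of RpL37A and 141 of RpL15. Likewise RpLP0 and RpL27 had 127 FPKM each there, RpS27A 94.6, RpL26 89.3, RpL10Ab 87.8, RpLP1 80.8, RpL9 59.3, RpL14 50.9, RpS9 45.7, RpS30 29.1, RpL11 28.8 and RpS4 20.7 FPKM. The genes rise and fall together across libraries, so these are not 20 separate observations.

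In RpL24-like and RpLP0-like, 20E replicate 6 stood far below the other 20E libraries, with 2.42 and 2.96 FPKM. In all 93 combinations of gene and group were examined and 22 stood out. Chance alone gives about 1 in 20, a share that holds for genes not picked by their values.

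The mean log2 level over the 58 genes was higher in 20E than in DMSO by 0.15 in run 200212, and the difference was -0.12 in run 190514, with each 20E library on the same side of its DMSO mean. The difference between the runs in this mean was not tested. The group by run test per gene gave 0 of 58 past the threshold and 0 at an unadjusted p under 0.05 (limma). Over all 9381 genes these counts were 0 and 207. Without JH3 replicate 1 the unadjusted count of members was no longer 0, as given above.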

How the results depend on the processing

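No member passed the threshold in a hormone comparison under any alternative, and 55 to 57 members passed in the comparison of the runs; in 127 recomputed values of the 11 main results a count stayed within 1.5 times and a median within 1 SD of the mean level between libraries of a group and run (0.20 log2 units). A sign can still turn within that limit, and the median of 20E with DMSO took both: it was 0.00, against -0.12 with no run term, -0.13 in run 190514 alone, 0.15 in run 200212 alone, -0.04 with library weights and -0.02 with quantile normalization. That of JH3 with DMSO was -0.00 with no run term, against 0.12. The run comparison moved once: with the gene length trend removed its median was -0.50, against -0.73. Under that setting RpL3 no longer passed (-0.21, adjusted p = 0.0645, limma) and RpL24-like did (-0.33, adjusted p = 0.0282). RpLP0-like was called with quantile normalization (-0.27, adjusted p = 0.0246) and without DMSO replicate 2 (-0.28, adjusted p = 0.0475). The cause was not tested. With total reads as the scale the median of 20E with DMSO was -0.07, where all genes also moved to -0.07.

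Leaving out each library in turn gave medians of -0.04 to 0.07 for 20E with DMSO, 0.03 to 0.19 for JH3 with DMSO, -0.18 to -0.05 for 20E with JH3 and -0.78 to -0.66 for run 200212 with run 190514, with 0, 0, 0 and 56 to 57 members passing. Of 17 same-numbered pairs of libraries 6 correlated above 0.1 (r from -0.38 to 0.50), and 7 of 19 libraries correlated best with their own number. The counts to be met without any pairing were not worked out, so these values do not decide whether the replicate numbers pair the libraries. With the replicate block in place of the run, 0 members passed in each hormone comparison, medians were -0.03, 0.10 and -0.13, and calls over all genes 274, 96 and 531. The run comparison has no value under the block, within 1 run or without the run term, and the group by run term was not refitted under voom, library weights or the block.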
